A study of Mus musculus with 13 samples.

Results

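Wnt ligands are secreted glycoproteins that carry a lipid, bind Frizzled receptors and their co-receptors on nearby cells, and either stabilise beta-catenin or act through Ror and other receptors without it. In the gut, Wnt signals from stromal cells and Paneth cells keep crypt stem cells dividing, and Apc belongs to the complex that destroys beta-catenin when no Wnt is bound. The 10 Wnt ligands described here are Wnt10a, Wnt6, Wnt5a, Wnt5b, Wnt3, Wnt4, Wnt11, Wnt2b, Wnt9a and Wnt2, taken as the genes whose name in the array files equals one of these, out of 36163 gene or transcript names on the arrays. Each ligand had 1 probe of 60 bases, and 9 of the 10 could be tested, because Wnt2 was well above background on only 1 of the 13 arrays.

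The arrays measured RNA of colorectal tissue from CPC-Apc mice (CDX2P-NLS Cre;Apc+/loxP), in which a Cre recombinase under a CDX2 promoter removes 1 floxed Apc allele from the cells that express it, so every group carries that deletion. Mice of the microRNA group received miR-200c, miR-302 (-a, -b, -c and -d) and miR-369 (-3p and -5p), 25 µg of each, in super carbonate apatite particles through the tail vein, 24 times at 3 injections a week from 8 weeks of age. Mice of the control group are labelled only as CPC-Apc mice with a description that matches the negative control microRNA. They were taken to have received it at the same dose and schedule from the same age, which their labels do not spell out. At sacrifice, tissue was divided into tumor and normal, which gave 2 microRNA tumors, 2 microRNA normal samples, 7 control tumors and 2 control normal samples. The labels do not tie samples to animals, so a p-value here covers only the spread among these samples, and some tumors may come from the same mouse. The number in the array file name is 5 for control tumors 1 and 2, and 6 for control tumors 4, 5, 6 and 7. Control tumor 3 shares the number 10 with control normal 2, and each microRNA tumor shares its number with a microRNA normal sample. No label says whether this number marks an animal.

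Every level below is the log2 signal of a probe minus the log2 of the array's 75th percentile, and every difference is on the same log2 scale. The 75th percentile ran from 415 to 740 on the 9 tumors, against 214 to 320 on the 4 normal samples, and 50.7% to 57.0% of probes were well above background. Some arrays stood apart in markers of gut position. Hoxb13, a homeobox gene of the distal colon, was at -1.57 in control tumor 1, at -4.53 in control tumor 5 and at -0.50 in microRNA normal 2, against 5.65 to 6.63 on the other 10 arrays. The summed level of 6 small intestine markers, as multiples of the 75th percentile, was 0.697 to 0.887 in microRNA tumors against 373 to 772 in microRNA normal samples, and 0.281 to 4.09 in control tumors against 2.82 to 9.15 in control normal samples. Xist was detected only on control tumor 3 (1.97) and control normal 2 (0.45), the 2 arrays that share the number 10 in their file names. Whether that number marks an animal was not tested. Results are also given without the 3 arrays of low Hoxb13, a choice made after seeing the data. That subset still holds microRNA normal 1, whose small intestine sum was 772, so it does not remove the difference in those markers.

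Sequences are shown for Wnt10a and Wnt6, neighbours that were both higher in tumors, and for the promoters that hold a TCF/LEF motif, because TCF/LEF factors are the partners of beta-catenin on DNA. The table of RefSeq promoters (GRCm38.p6, 250 bases before to 50 after a gene's start) matched 8 of the 10 ligands, with 11 promoters in all; Wnt10a and Wnt5a are named only. The motif CTTTGAT was searched on both strands. It occurred in 2 of the 11 ligand promoters, the first of Wnt11 and the third of Wnt5b, and in 1225 of 32851 promoters of the table (3.73%). The 250 bases before the start are printed 5′ to 3′ on the gene's strand, with the motif or its reverse complement in capitals; the Wnt6 window, on chr1:74771642-74771891 of the plus strand, holds no match. The Wnt11 window is chr7:98834862-98835111 on the plus strand, and the Wnt5b window is chr6:119449387-119449636 on the minus strand.
Wnt6 promoter: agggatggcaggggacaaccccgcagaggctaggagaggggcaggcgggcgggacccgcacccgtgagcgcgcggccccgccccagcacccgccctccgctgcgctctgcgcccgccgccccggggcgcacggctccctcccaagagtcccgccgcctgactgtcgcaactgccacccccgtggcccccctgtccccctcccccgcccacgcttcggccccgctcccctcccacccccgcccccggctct
Wnt11 promoter: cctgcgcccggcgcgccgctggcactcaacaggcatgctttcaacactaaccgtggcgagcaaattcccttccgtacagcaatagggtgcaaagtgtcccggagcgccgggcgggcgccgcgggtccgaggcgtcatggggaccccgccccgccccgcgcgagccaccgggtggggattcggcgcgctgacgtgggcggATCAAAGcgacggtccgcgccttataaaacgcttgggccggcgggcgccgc
Wnt5b promoter: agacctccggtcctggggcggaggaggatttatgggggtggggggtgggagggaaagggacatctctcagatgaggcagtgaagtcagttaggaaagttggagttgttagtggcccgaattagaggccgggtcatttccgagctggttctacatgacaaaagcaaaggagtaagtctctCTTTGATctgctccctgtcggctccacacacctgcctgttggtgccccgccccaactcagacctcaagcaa

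The probes of the pair of neighbouring ligands that were higher in tumors lie, on mm9 as the files give it, at chr1:74850633-74850692 for Wnt10a (NM_009518) and chr1:74831461-74831520 for Wnt6 (NM_009526), both on the plus strand. Bases 31 to 60 of each probe are printed, with an AATAAA polyadenylation signal in capitals where a search found one.
Wnt10a probe: ctctttgagacactctctggggaaaaagaa
Wnt6 probe: gtttagtatcAATAAAgacatttaaatcca

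The first question was which ligands differed between tumors and normal tissue over both groups of mice. Wnt10a, Wnt6 and Wnt5a were higher in tumors, and Wnt9a was lower. The other 5 tested ligands (Wnt5b, Wnt3, Wnt4, Wnt11 and Wnt2b) did not pass the test. So 4 of 9 tested ligands were called at a limma adjusted p under 0.05, beside 31.4% of all 25402 genes; 3 were higher, beside 11.7% of all genes, and 1 was lower, beside 19.7%. The median difference was 0.34 over the 9 ligands and -0.11 over all genes. Below, some ligands are described as not overlapping between tumors and normal samples. The share of all genes without such overlap was not computed, so this is a description only.

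Wnt10a, a ligand known from the skin, hair and teeth that acts through beta-catenin, was at 2.07 and 1.38 in the microRNA tumors, and in control tumors ran from -0.79 through a median of 3.37 to 5.31. It was at -4.77 and -5.08 in the microRNA normal samples, where it was not well above background, and at -2.57 and -3.55 in the control normal samples. Every tumor was above every normal sample, and control tumor 6 was the highest array and control tumor 1 the lowest tumor. Tumors averaged 2.44 ± 2.00 (SD, n = 9) and normal samples -3.99 ± 1.16 (SD, n = 4). The difference fitted with treatment as a term, which is not that of these plain means, was 6.08 (SE 1.00, limma adjusted p = 0.00182). It was 6.74 without the 3 arrays of low Hoxb13 (limma adjusted p = 0.000269).

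Wnt6, which lies next to Wnt10a on chromosome 1 and is a ligand of developing epithelia, was at 0.96 and 0.55 in microRNA tumors, and from -0.21 through a median of 1.96 to 3.73 in control tumors. In normal tissue it was at -2.19 and -2.63 in microRNA samples and at -2.26 and -2.78 in control samples. The groups did not overlap, and the highest and the lowest tumor were those of Wnt10a. The difference was 3.87 (SE 0.66, limma adjusted p = 0.00207), and 4.29 without the 3 arrays of low Hoxb13 (limma adjusted p = 0.00168).

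Wnt5a, a ligand of gut mesenchyme that signals through Ror2 and related receptors rather than beta-catenin, was at 1.79 and 1.58 in microRNA tumors, and from 0.75 through a median of 1.34 to 1.85 in control tumors. It was at -0.40 and -0.46 in microRNA normal samples and at -0.20 and -0.33 in control normal samples. All 9 tumors lay between 0.75 and 1.85, above the 4 normal samples. The difference was 1.83 (SE 0.21, limma adjusted p = 0.000256), the smallest adjusted p of the 9 ligands. Markers of several cell types differed between the same samples. Of 8 fibroblast markers, Col1a1, Col1a2 and Pdgfra were higher in tumors and none was lower, beside 11.7% and 19.7% of all genes; in control mice Dpt was also lower, by a difference of -2.56 (limma adjusted p = 0.0420), beside 10.9% of all genes. Their summed level, as multiples of the 75th percentile, was 258 to 266 in microRNA tumors against 80.4 to 84.2 in microRNA normal samples, and 137 to 316 in control tumors against 124 to 127 in control normal samples. Of 6 markers of subepithelial Foxl1-type fibroblasts, Bmp7 and F3 were higher and Foxl1 differed by 1.08 (limma adjusted p = 0.173). Of 6 neutrophil markers 5 were higher, with a median difference of 3.65. All 6 tested adipocyte markers (median -4.96), all 6 T cell markers (median -1.77), 6 of 8 enteric neuron and glia markers and 4 of 8 epithelium markers were lower. All 8 smooth muscle markers were lower, with sums of 213 to 235 in microRNA tumors against 420 to 452 in microRNA normal samples, and of 37.9 to 248 in control tumors against 738 to 1032 in control normal samples. The part of tissue makeup in the ligand differences was not tested, and in bulk tissue fewer cells of a type and less RNA per cell cannot be told apart.

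**Figure D1:**
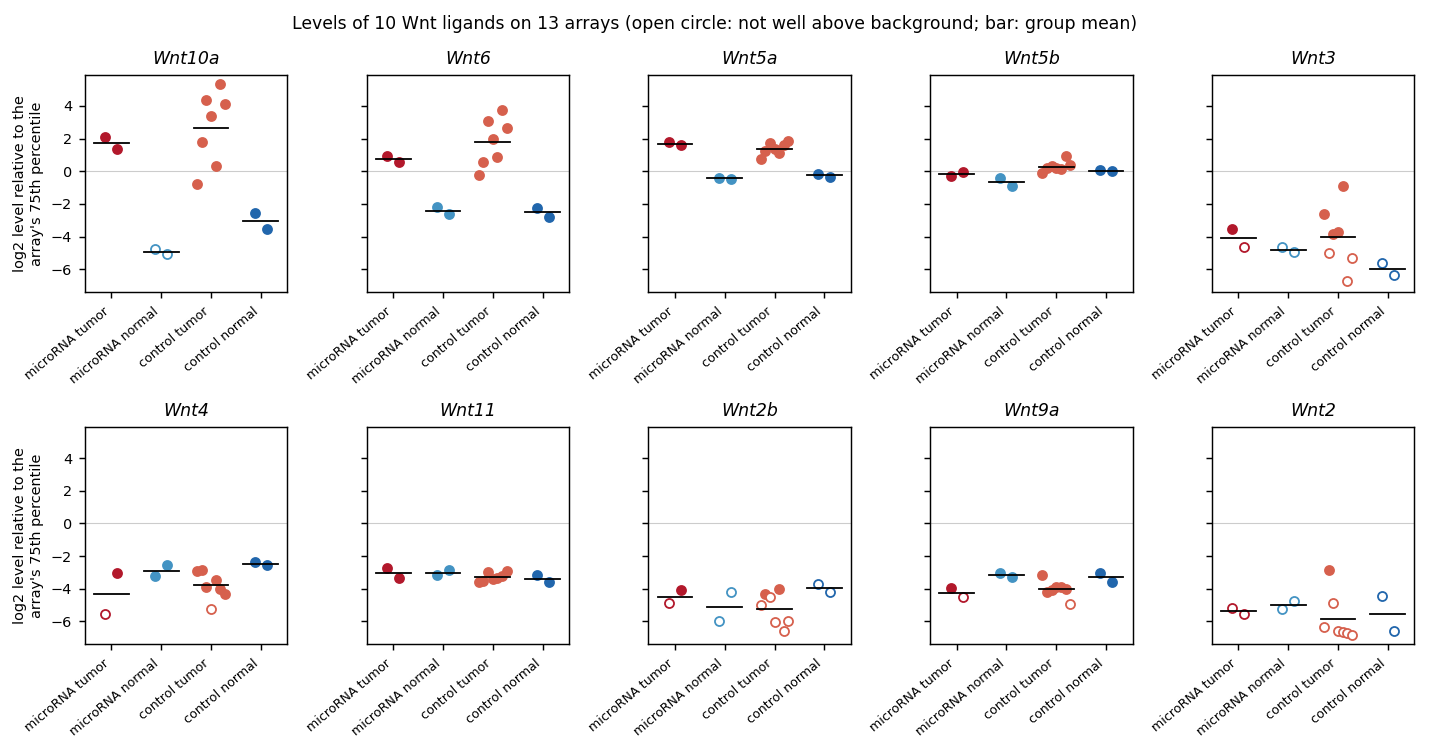
Log2 level of each of the 10 ligands relative to the array's 75th percentile, 1 point per array, by group; open circles are not well above background and bars are group means. All tumors lie above all normal samples for Wnt10a, Wnt6 and Wnt5a, and Wnt10a spans -0.79 to 5.31 among control tumors. The share of all genes with such a separation was not computed.

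Wnt9a, a ligand known from joint development, was at -3.94 and -4.53 in microRNA tumors and from -4.93 through -3.99 to -3.15 in control tumors. It was at -3.06 and -3.26 in microRNA normal samples and at -3.00 and -3.56 in control normal samples. Tumors and normal samples overlapped through control tumor 1 alone, which was above 2 of the 4 normal samples. The difference was -0.88 (SE 0.28, limma adjusted p = 0.0302). It was not called with the slide as a block (-0.84, limma adjusted p = 0.0629) or without control normal 1 (-0.79, limma adjusted p = 0.111), microRNA normal 1 (-0.81, limma adjusted p = 0.0723) or microRNA tumor 2 (-0.76, limma adjusted p = 0.0773), and its sign turned without scaling between arrays (0.12).

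Wnt4, a ligand of kidney and female reproductive tract development, was at -5.52 and -3.06 in microRNA tumors and from -5.22 through -3.87 to -2.82 in control tumors. It was at -3.22 and -2.57 in microRNA normal samples and at -2.38 and -2.57 in control normal samples. The microRNA tumor at -5.52 and the control tumor at -5.22 were not well above background, and each control tumor was below both control normal samples. The difference of -1.35 (SE 0.49) had a limma adjusted p = 0.0529. It was called with the slide as a block (-1.73, limma adjusted p = 0.0311) and without control tumor 1 (-1.44), control tumor 2 (-1.45) or microRNA tumor 2 (-1.71).

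Wnt3, which Paneth cells make in the mouse small intestine, was well above background on 5 tumors and on none of the 4 normal samples. It was at -3.52 and -4.64 in microRNA tumors and from -6.74 through -3.87 to -0.89 in control tumors. Normal samples were at -4.67 and -4.96 in microRNA mice and at -5.63 and -6.33 in control mice. The highest arrays were control tumor 5 and then control tumor 1, at -2.63, the 2 tumors of low Hoxb13. The fitted difference of 1.47 (SE 0.86) had a limma adjusted p = 0.206, and it sets tumors against values below background. It was 0.90 without the 3 arrays of low Hoxb13 and -0.19 with normexp background correction, and it was called without scaling between arrays (2.47, limma adjusted p = 0.0189). Within slide 2, where the 5 arrays hold 2 tumors, the difference was 1.70 (limma adjusted p = 0.0459), and within slide 1 it was 0.32. Of 6 Paneth cell markers, Mmp7 and Pla2g2a were higher in tumors over both groups of mice and 4 did not pass. In control mice 5 of 6 were higher, with a median difference of 5.46, beside 8.18% of all genes, among them the lysozyme gene Lyz1 at 2.47 and the defensin gene Defa4 at 7.18. In microRNA mice the same 2 as over both groups were higher, beside 1.42% of all genes, and the median was -0.70. The tumor effect differed between the groups of mice for 1 of 6, the defensin gene Defa26, by -9.91 (limma adjusted p = 0.0137), beside 0.177% of all genes lower in that comparison. The summed level of the 6 markers was 160 to 292 in microRNA tumors against 245 to 477 in microRNA normal samples, and 111 to 428 in control tumors against 71.1 to 188 in control normal samples. Control tumor 5 had Lyz1 at 7.07, within the range of the other tumors, and the lowest Defa4 of the tumors at -1.76. Its sum over the 6 markers was 329, and that of control tumor 1 was 206, both within the range of control tumors. The part of Paneth cells in the Wnt3 levels was not tested.

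Wnt5b, the closest relative of Wnt5a, was well above background on all 13 arrays, at -0.30 and -0.03 in microRNA tumors and from -0.13 through 0.20 to 0.94 in control tumors. It was at -0.40 and -0.92 in microRNA normal samples and at 0.07 and 0.01 in control normal samples. The groups overlapped, with a difference of 0.34 (SE 0.20, limma adjusted p = 0.194). Wnt11, known from kidney branching and cell movement, was at -2.76 and -3.34 in microRNA tumors, and from -3.59 through -3.34 to -2.90 in control tumors. It was at -3.16 and -2.87 in microRNA normal samples and at -3.17 and -3.58 in control normal samples. All 13 arrays lay within 1 log2 unit, and the difference was 0.05 (SE 0.18, limma adjusted p = 0.858).

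Wnt2b, a stromal ligand that supports intestinal stem cells, was well above background on 3 arrays: microRNA tumor 2 at -4.07, control tumor 2 at -4.32 and control tumor 5 at -4.04. The other 6 tumors ran from -6.60 to -4.50 and were not well above background. Normal samples were not either, at -5.96 and -4.22 in microRNA mice and -3.68 and -4.22 in control mice. Wnt2b did not pass the test, with a fitted difference of -0.53 (SE 0.57, limma adjusted p = 0.492) that rests on normal samples below background. It was called lower with normexp background correction (-0.66, limma adjusted p = 0.00438). Wnt2, a ligand of the lung and of colon fibroblasts, was well above background only in control tumor 2, at -2.86; the other 12 arrays gave bounds only. A fall of either ligand in tumors could not be measured with these probes, since normal tissue gave only a bound.

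Within each group of mice, the tumor effect was read from 2 normal samples. In microRNA mice 1 of 9 ligands, Wnt5a, was higher, beside 1.42% of all genes, at 2.12 (SE 0.34, limma adjusted p = 0.00843). Wnt10a was at least 79.7-fold higher there, with microRNA normal samples dim, and a limma adjusted p = 0.0522 that passed with the slide as a block (limma adjusted p = 0.0444) and without control tumor 1, 3, 5 or 6 (limma adjusted p from 0.0198 to 0.0475). Wnt6 differed by 3.16 (SE 1.06, limma adjusted p = 0.117). Each microRNA tumor shares the number in its array file name with 1 microRNA normal sample, and with that number as a random block both Wnt10a (limma adjusted p = 0.0218) and Wnt6 (limma adjusted p = 0.0499) were called. Without microRNA tumor 1, microRNA normal 1 or microRNA normal 2, no ligand was called, and the Wnt5a difference was 2.01 to 2.15 in these fits. In control mice 3 of 9 ligands were higher, beside 8.18% of all genes, and none was lower. These were Wnt10a at 5.71 (SE 1.32, limma adjusted p = 0.0169), Wnt6 at 4.32 (SE 0.85, limma adjusted p = 0.00938) and Wnt5a at 1.64 (SE 0.27, limma adjusted p = 0.00425). Without control normal 1, or without control normal 2, none of the 3 was called, although the differences kept their direction: Wnt10a was then at 6.20 or 5.21, Wnt6 at 4.59 or 4.06 and Wnt5a at 1.70 or 1.58 (limma adjusted p of 0.0528 and 0.0535 for Wnt5a). Wnt2b was not called in either group of mice, and its normal samples were below background in both.

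Both arrays of control normal tissue lay on slide 2. With the slide as a block, the difference between tumors and normal tissue over both groups was 6.69 for Wnt10a, 4.11 for Wnt6 and 2.00 for Wnt5a, all called. Within slide 2 it was 7.16, 4.54 and 2.08 for these 3 ligands, all called. Within slide 1, where microRNA normal 2 was the only normal sample, it was 6.46, 3.18 and 2.04, with no ligand called and 10 genes called of all 25402.

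**Figure D2:**
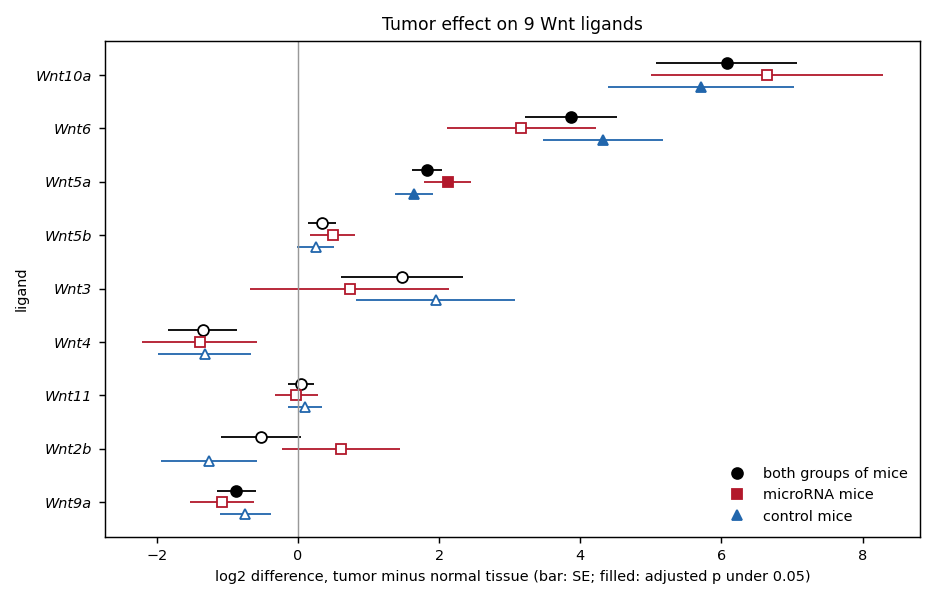
Log2 difference, tumor minus normal tissue, of the 9 tested ligands over both groups of mice, in microRNA mice and in control mice; bars are SE and filled symbols have an adjusted p under 0.05. Wnt5a is filled in all 3 comparisons, and the Wnt11 and Wnt5b symbols lie near 0.

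The next question was whether the injected microRNAs changed the ligands. In microRNA tumors against control tumors, 0 of 9 ligands passed the limma test (limma adjusted p = 0.9996 for each; none had an unadjusted p under 0.05), beside 0.00394% of all genes, which is 1 gene. Wnt6 differed by -1.05 (SE 0.85), Wnt10a by -0.92 (SE 1.32), Wnt5b by -0.45 (SE 0.26) and Wnt5a by 0.31 (SE 0.27). The microRNA tumors lay inside the range of the control tumors for Wnt10a, Wnt6 and Wnt5a. In microRNA normal tissue against control normal tissue, 0 of 9 passed the limma test, none with an unadjusted p under 0.05, beside 0.531% of all genes. Wnt10a, not well above background in microRNA normal samples, gave a bound of at least 2.89-fold lower (limma adjusted p = 0.959), and Wnt5b differed by -0.70 (SE 0.32, limma adjusted p = 0.913). These normal samples also differed in the small intestine markers given above and in markers of other epithelia. Of 8 squamous epithelium markers, 5 (Krt5, Krt1, Krtdap, Flg and Lor) were lower in microRNA normal tissue, beside 0.248% of all genes, and the list summed to 8.72 to 10.65 in microRNA normal samples against 17.5 to 44.0 in control normal samples. Of 6 Paneth cell markers, Defa26 and Mmp7 were higher in microRNA normal tissue, beside 0.283% of all genes. The part of gut position and of squamous tissue in these values was not tested. The tumor effect itself differed between microRNA mice and control mice for 0 of 9 ligands by limma, none with an unadjusted p under 0.05, beside 0.28% of all genes. For Wnt6 that difference of effects was -1.16 (SE 1.36, limma adjusted p = 0.859) and for Wnt5a it was 0.48 (SE 0.43, limma adjusted p = 0.832). For Wnt10a, Wnt3 and Wnt2b it rests on normal samples below background, so no size is given. With 2 microRNA tumors the SE of these ligands ran from 0.25 for Wnt11 to 1.32 for Wnt10a, so a change of Wnt10a by 1 log2 unit was not detectable.

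Among the 9 tumors, Wnt10a and Wnt6 varied together. Control tumors 6, 3, 7 and 4 held the 4 highest levels of each, in the same order, and control tumor 1 the lowest of each. The 5 ligands that were well above background on all 9 tumors gave 10 pairs, and the pair of Wnt10a and Wnt6 had a Pearson r of 0.95 (exact permutation p = 9.09e-05, adjusted over 10 pairs 0.000909) and a Spearman rho of 0.95 (exact permutation p = 0.000353, adjusted 0.00353). It was 0.91 without control tumors 1 and 6, 0.95 within the 7 tumors of slide 1, and 0.99 without control tumors 1 and 5. Wnt5a and Wnt11 had an r of 0.86 (exact permutation p = 0.00321, adjusted 0.0112) and a rho of 0.88 (exact permutation p = 0.00308, adjusted 0.0154), with r at 0.92 without control tumors 1 and 5. Of the 10 pairs, 5 had an adjusted p under 0.05 by r and 2 by rho. The share over pairs of all genes was not computed, so these counts are not set against a background. Over the same 9 tumors, genes outside the ligands reached an r of 0.99 with Wnt10a and with Wnt6. Wnt10a and Wnt5a had an r of 0.76, which was 0.35 without control tumors 1 and 5. It was 0.64 without control tumors 1 and 6, and 0.82 within the 7 tumors of slide 1. Control tumors 4, 5, 6 and 7 share a number in the array file name, as do control tumors 1 and 2. If several tumors come from 1 mouse, which the labels leave unstated, these p-values are too small.

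**Figure D3:**
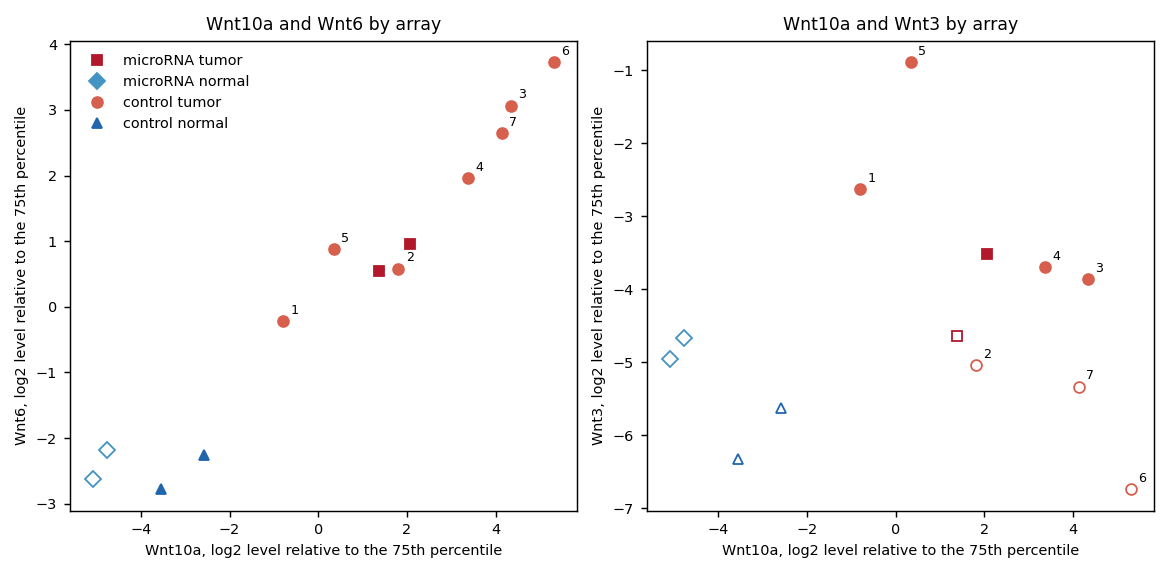
Log2 level of Wnt10a against Wnt6 and against Wnt3, 1 symbol per array, with control tumors numbered; open symbols are not well above background for 1 or both genes. Control tumor 6 is highest and control tumor 1 the lowest tumor for both Wnt10a and Wnt6, while Wnt3 is highest in control tumors 5 and 1.

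Over the 9 tumors and 14955 genes with a reference symbol, the genes most like each ligand by Pearson r were as follows, as a description with no test. For Wnt10a they were Morn4 and Mdga2 (both 0.99), and for Wnt6 Gprc5c and Gpr179 (both 0.99). For Wnt5a they were Pggt1b and Alkbh8 (both 0.96), and for Wnt5b Arhgap22 (0.98) and Samd14 (0.97). For Wnt3 they were Prelid1 and Ccdc122 (both 0.97), and for Wnt9a Nfkb1 (0.97) and Snf8 (0.95). For Wnt11 they were Ankrd49 (0.97) and Ttk (0.95), and for Wnt4 Rap2a (0.93) and 8430426J06Rik (0.92). These are the highest of 14955 correlations for each ligand, over tumors that may share a mouse.

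Genes beside Wnt6 and Wnt10a on chromosome 1 did not all move with them. On the Wnt6 side, Ttll4, a tubulin-modifying enzyme, was higher in tumors by 0.91 (SE 0.26, limma adjusted p = 0.0209), and Cyp27a1, a sterol hydroxylase, by 1.56 (SE 0.55, limma adjusted p = 0.0479). On the Wnt10a side, Fev differed by -0.83 (limma adjusted p = 0.0647) and Cryba2 by -0.93 (limma adjusted p = 0.126). Prkag3 and Cdk5r2 were not well above background on any array. Wnt10a differed by 6.08 and Wnt6 by 3.87 in the same fit.

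Of 9 other Wnt ligands on the arrays, 6 could be tested. Wnt16 was higher in tumors, at least 2.41-fold (limma adjusted p = 0.0208), beside 11.7% of all genes higher. A second probe of Wnt16 was well above background on 8 tumors and 1 normal sample, so that bound holds for the tested probe only. Wnt8b passed the test as lower (limma adjusted p = 0.0422), but it was well above background on only 1 of 9 tumors and 2 of 4 normal samples, so no size is given. A second probe of Wnt8b gave no signal well above background on the 13 arrays. With normexp background correction Wnt16 turned to -0.13, with quantile normalization neither gene was called, and without scaling between arrays Wnt8b was not called (limma adjusted p = 0.541). Wnt7a was well above background on 6 tumors and on no normal sample and did not pass (limma adjusted p = 0.0891). It was called with quantile normalization (limma adjusted p = 0.0295) and without scaling (limma adjusted p = 0.00403), and its difference was -0.32 with normexp. Wnt1 differed by -0.17 (limma adjusted p = 0.521) by a probe well above background on all 13 arrays, while its second probe was so on none.

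The next lists hold the machinery that makes and receives Wnt. None of 6 genes for Wnt lipidation and secretion passed the limma test in tumors against normal tissue, beside 31.4% of all genes. Of the 6, Vps26a and Snx3 had an unadjusted p under 0.05. Wls, which carries Wnt to the cell surface, differed by 0.18 and Porcn, which attaches the lipid, by 0.42. Without scaling between arrays 5 of the 6 were called higher, beside 15261 of all 25402 genes called in that setting, 95.5% of them higher. Of 15 tested receptors and co-receptors, 2 were higher and 2 lower, so 4 of 15 were called beside 31.4% of all genes. Fzd1 was higher by 0.82 (limma adjusted p = 0.00377) and Ror2, a receptor of Wnt5a, by 0.73 (limma adjusted p = 0.0217). Fzd5 was lower by a difference of -1.34 (limma adjusted p = 0.0385) and Lrp6 by -0.48 (limma adjusted p = 0.0394), and Lrp6 turned to 0.52 without scaling.

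Other genes amplify or restrain Wnt. Of 7 tested R-spondins, R-spondin receptors and target ligases, 4 were higher and none lower, beside 11.7% of all genes higher and 19.7% lower. Lgr6 was at least 8.90-fold higher (limma adjusted p = 5.85e-05), the stem cell marker Lgr5 differed by 2.52, and Rnf43 and Znrf3, ligases that remove Frizzled receptors, by 2.40 and 1.66. Of 10 tested secreted antagonists, 4 were higher and 1 lower, beside the same shares. Dkk2, which blocks the co-receptors, differed by 5.22 and the Wnt-binding protein Wif1 by 5.34, while Notum, which strips the lipid from Wnt, differed by 2.31 and Sfrp5 by -1.92. All 10 beta-catenin target genes were higher, beside 11.7% of all genes, with Prox1 at 4.68, Nkd1 at 3.76, Sp5 at 3.83 and Lef1 at 3.11. The median difference was 1.66 for the R-spondin group, 0.90 for the antagonists, 2.17 for the targets and 0.02 for the receptors, beside -0.11 over all genes. The pathway lists held 0 calls by limma in microRNA tumors against control tumors, where Fzd10 (-1.87) and Rspo3 (1.53) had an unadjusted p under 0.05.

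**Figure D4:**
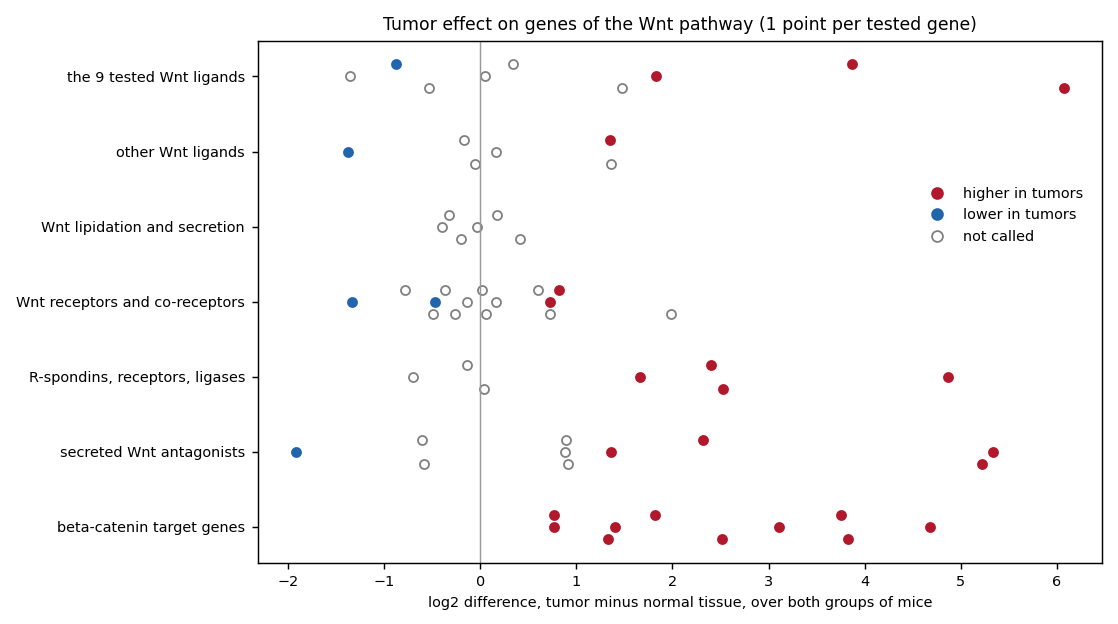
Log2 difference, tumor minus normal tissue over both groups of mice, for each tested gene of 6 pathway lists and the 9 tested ligands; red is higher, blue is lower and open circles did not pass. Beta-catenin targets all lie above 0, whereas lipidation and secretion genes lie between -0.40 and 0.42.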

How the data were processed

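RNA of 13 colorectal samples was hybridized, 1 array per sample in 1 colour, to SurePrint G3 mouse arrays, from 35 ng of total RNA per the labels. The deposited intensity values were extracted by the authors with Feature Extraction 10.7.3.1, per the file headers, and are linear, background-subtracted and without scaling across arrays. Another deposited table repeats these intensities, with a largest relative difference of 0.

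Outlier spots were left out, spots of 1 probe were averaged, and each log2 signal was reduced by the log2 of its array's 75th percentile. Probes well above background on at least 2 arrays were kept, with the probe of highest mean for each gene, which left 25402 genes. Differences were tested with limma 3.58.1 in R 4.3.3 on all 13 arrays, with Benjamini-Hochberg adjustment over all genes and an adjusted p under 0.05 called. Tumors and normal tissue of both groups of mice were compared in a model with additive terms for tissue and treatment, and the other comparisons came from the means of the 4 groups. A lower bound ("at least") was given where the dim group was below background on every array. It sets the bright group's mean against the dim group's values. A dim value under the lowest detected signal of any probe on its array was raised to that signal. That signal is not a detection limit of the gene's own probe, so the bound is approximate. Procedures were tested on simulated data. Figures used matplotlib 3.10.9.

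The members and lists were chosen with earlier results of these data known. The text names all 10 ligands, up to 4 genes of a pathway list with the smallest p and some chosen after their values were seen, and the 2 genes most like each ligand. The number of arrays limits precision. Alternatives were quantile normalization, median scaling, normexp with an offset of 50, the deposited table without scaling, no filter, a filter by group, the mean of probes, trend and robust estimation, each slide alone or as a block, the replicate number and the number in the file name as blocks, each array left out, the 2 arrays with Xist left out, and the 3 arrays of low Hoxb13 left out.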

Additional observations from a re-analysis of the deposited data

How the results depend on the processing

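The count of called ligands for tumors against normal tissue over both groups of mice was 4; it was 7 with normexp background correction, 6 without scaling between arrays, where Wnt11 (1.04), Wnt3 (2.47) and Wnt5b (1.34) were called and Wnt9a was not, 5 within slide 2, with no filter, with the filter by group and with the file-name number as a random block, 0 within slide 1, and 3 to 5 when 1 array was left out. For control tumors against control normal tissue it was 3; it was 7 with normexp, 6 without scaling between arrays, 1 with the replicate block, 1 without both arrays with Xist signal, and 0 to 3 when 1 array was left out. For microRNA tumors against microRNA normal tissue it was 1; it was 2 with quantile normalization, with no filter on dim probes, with the filter by group, with trend and robust estimation, with the slide as a block and without the 3 arrays of low Hoxb13, 3 without scaling, with the replicate block and with the file-name number as a random block, 0 within slide 1, and 0 to 2 when 1 array was left out. The 3 comparisons that involve the microRNA treatment directly stayed at 0 under every alternative run. The sign turned for Wnt11 with normexp, over both groups (-0.47) and in control mice (-0.50), and for Wnt9a over both groups without scaling (0.12). Over both groups, Wnt9a also lost its call with median scaling, with the replicate block and without both arrays with Xist signal. With quantile normalization Wnt9a lost its call and Wnt4 was called. With the replicate block, Wnt10a (limma adjusted p = 0.0226) and Wnt6 (limma adjusted p = 0.0215) were the ligands added in microRNA mice. Equal replicate numbers were not taken to pair the samples over the study, since no label says that they mark an animal. Deviations from the group means correlated at 0.42 for microRNA tumors with microRNA normal samples, which also share their file-name numbers. The value was -0.14 for control tumor 1 with control normal 1 and -0.09 for control tumor 2 with control normal 2, whose file-name numbers differ. Control tumor 3 and control normal 2, which share the number 10, were not compared in this way. In groups of 2 arrays the deviations mirror each other, so these values cannot decide whether samples are paired. The median difference of all genes over both groups was -0.11, and 0.89 without scaling, -0.27 with normexp and -0.34 with no filter. Of all genes, 7977 were called over both groups (37.3% higher); it was 12199 with normexp (20.8% higher), 15261 without scaling (95.5%), 12978 with no filter (23.96%), 7798 with quantile normalization (51.6%), 6440 with median scaling (50.7%), 4913 within slide 2, 10 within slide 1, 2844 with the replicate block, 4653 and 3836 without control normal 1 and 2, and 4135 without both arrays with Xist signal. The cause of these shifts was not tested. Signal near background limits Wnt2, Wnt2b and Wnt3.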
